A study of Homo sapiens with 10 samples.

Results

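The regions described here are the promoter regions of an H3K27ac data set, that is, every 502-bp counted region that the deposited annotation placed within 1 kb of a transcription start site (TSS). H3K27ac is the acetylated form of lysine 27 of histone H3, and it was profiled by ChIP-seq, the sequencing of DNA that an antibody to the mark pulls down, in H1975 cells. H1975 is a human cell line established from a lung adenocarcinoma with mutant EGFR. The annotation class was the only criterion applied here, and it used no treatment label. How the deposited annotation chose its regions was not examined. Among the promoter regions 0 were without a peak in any of the 9 libraries. A region low in 1 group may thus be a member only through a group where it is high. It gave 24296 regions out of 67387 annotated and 169637 counted regions, which is 36.1% of the annotated ones, and they were assigned to 12295 genes and 20267 transcripts. Of these genes 5544 held 1 promoter region, 3949 held 2 and 2802 held 3 or more, up to 16 in 1 gene, so that regions of the same gene are neighbours and not independent measurements. A region overlapped the TSS in 12374 cases, lay upstream of it in 6071 and downstream in 5851.

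Each of the 3 conditions had 3 libraries, labelled as biological replicates, and 1 input library was pooled. DMSO cells were kept drug-free for 21 days and then in DMSO, the solvent, for 3 days. The group named osi_DTP, for drug tolerant persister, spent 24 days with osimertinib at 500 nM, a drug that blocks mutant EGFR. The group named osi_DTP_AZD5153 spent 21 days with osimertinib at 500 nM and then 3 days with AZD5153 at 150 nM, a bivalent inhibitor of the BET bromodomain proteins, and the labels do not say whether osimertinib was kept during those last days. All cells are from 1 line, so p-values measure the spread between these cultures. The mark is an average over all cells of a culture, and fewer cells with an acetylated promoter cannot be told apart from less acetylation in each cell.

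Acetylation of H3K27 is placed by the acetyltransferases p300 and CBP on nucleosomes beside active promoters and enhancers, and at promoters it flanks the TSS, which is itself depleted of nucleosomes. BET proteins bind acetylated histones and help release paused RNA polymerase II, and AZD5153 blocks that binding rather than the acetylation. Many genes have several promoters, and the use of an internal start yields another transcript of the same gene. EGFR signals through the RAS-MAPK and PI3K-AKT pathways to immediate early genes, to the feedback inhibitors of the pathway and to the cell cycle. Persister cells are cells that survive a targeted drug in a slowly dividing state without a resistance mutation.

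The sequences of 7 gene starts are shown because promoter regions of these genes are named below. CST5, BLOC1S1 and SMAGP came from the rule that named genes by the size of their change. ANKRD1, DUSP6, BUB1 and H3C8 are members of gene groups, chosen after their values were seen. The sequences are the 250 bases before the start in RefSeq, build GRCh38.p14, read 5′ to 3′ on the strand of the gene. The counted region lay between 8 bp (BUB1) and 992 bp (BLOC1S1) away. Capitals mark matches, on either strand, to the letters searched, which were TGACTCA for AP-1 factors, TGACGTCA for the cyclic AMP response element, GGAATG for TEAD factors and CCGGAAG for ETS factors. The others were CCAAT for NF-Y, GGGCGG for SP factors, CACGTG for the E-box, GCGCATGC for NRF1 and TATAAA for the TATA box. Regions of CST5 and ANKRD1 were called higher in osi_DTP, whereas those of the other 5 were called lower in 1 or both treated groups. Positions are chr20:23879749-23879998 for CST5, chr10:90921088-90921337 for ANKRD1, chr12:89352502-89352751 for DUSP6, chr12:51270416-51270665 for SMAGP, chr2:110678064-110678313 for BUB1 and chr6:26271414-26271663 for H3C8, all on the minus strand, and chr12:55715796-55716045 for BLOC1S1 on the plus strand.
CST5: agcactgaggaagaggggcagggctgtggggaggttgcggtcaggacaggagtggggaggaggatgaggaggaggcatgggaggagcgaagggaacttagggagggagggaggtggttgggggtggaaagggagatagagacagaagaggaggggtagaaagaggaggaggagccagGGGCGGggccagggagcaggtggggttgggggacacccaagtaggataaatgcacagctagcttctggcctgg
ANKRD1: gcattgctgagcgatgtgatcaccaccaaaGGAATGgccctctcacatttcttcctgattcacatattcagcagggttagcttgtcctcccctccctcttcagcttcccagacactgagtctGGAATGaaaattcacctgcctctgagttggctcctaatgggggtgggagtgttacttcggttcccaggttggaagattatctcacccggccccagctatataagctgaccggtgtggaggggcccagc
BLOC1S1: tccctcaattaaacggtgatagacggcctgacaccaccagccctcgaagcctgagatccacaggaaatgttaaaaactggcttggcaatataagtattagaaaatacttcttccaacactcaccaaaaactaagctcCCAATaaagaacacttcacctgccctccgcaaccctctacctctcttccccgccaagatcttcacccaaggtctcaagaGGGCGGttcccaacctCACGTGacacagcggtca
SMAGP: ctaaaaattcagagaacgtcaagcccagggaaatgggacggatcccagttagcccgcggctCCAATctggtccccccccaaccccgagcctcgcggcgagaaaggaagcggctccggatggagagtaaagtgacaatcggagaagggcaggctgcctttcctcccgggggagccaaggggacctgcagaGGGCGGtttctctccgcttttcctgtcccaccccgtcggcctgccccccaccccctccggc
DUSP6: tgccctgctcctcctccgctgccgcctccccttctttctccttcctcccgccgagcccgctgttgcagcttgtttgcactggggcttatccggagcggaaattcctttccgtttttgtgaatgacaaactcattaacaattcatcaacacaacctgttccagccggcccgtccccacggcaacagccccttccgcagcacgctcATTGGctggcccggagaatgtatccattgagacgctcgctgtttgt
BUB1: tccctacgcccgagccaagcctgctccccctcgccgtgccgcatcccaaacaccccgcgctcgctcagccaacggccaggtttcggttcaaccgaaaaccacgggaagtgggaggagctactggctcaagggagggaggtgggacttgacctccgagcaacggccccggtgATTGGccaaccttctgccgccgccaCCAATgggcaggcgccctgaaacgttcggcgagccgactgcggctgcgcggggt
H3C8: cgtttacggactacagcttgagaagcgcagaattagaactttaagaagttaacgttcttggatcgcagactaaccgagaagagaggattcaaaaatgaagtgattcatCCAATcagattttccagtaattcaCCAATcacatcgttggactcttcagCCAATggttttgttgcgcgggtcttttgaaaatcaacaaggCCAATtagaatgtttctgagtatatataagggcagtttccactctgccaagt

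The ANKRD1 start held 2 matches to the TEAD letters, the BUB1 start held 2 and the H3C8 start 4 to the NF-Y letters, and the DUSP6 start held 1 of the latter. Among all 27305 RefSeq windows of this kind (here of 300 bases, with 50 after the start), 14% held GGAATG and 35.7% held CCAAT, and among the 8852 windows whose gene had a promoter region within 1 kb of the window the shares were 10.8% and 37.3%. A match describes the letters and not the binding of a factor.

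The total count over all regions was 6263443 to 10463351 per library, and 3 features of the libraries bear on every comparison. First, 29.3% to 34.8% of the counts of 7 libraries fell in promoter regions, but 50.8% did in osi_DTP replicate 2 and 52.9% in osi_DTP_AZD5153 replicate 3. Second, over promoter regions the counts of osi_DTP_AZD5153 replicate 3 correlated with those of its group at Spearman's rho of 0.603 and 0.572, against 0.923 between replicates 1 and 2 of that group, 0.73 to 0.861 within osi_DTP and 0.912 to 0.944 within DMSO. Last, no count exceeded 1148, close to the 1152 that 1 read per position and strand allows, and 1006 promoter regions (4.14%) had a count above the midpoint between 0 and that limit in some library. All 8 epithelial marker genes checked (EPCAM, KRT7, KRT8, KRT18, KRT19, CDH1, NKX2-1 and NAPSA) had promoter regions, 35 in all, with a summed level of 475 to 673 CPM (the count scaled by the TMM library size) in DMSO, 496 to 1040 in osi_DTP and 502 to 1060 in osi_DTP_AZD5153. Of 5 hematopoietic markers only CD14 had a promoter region, and of 5 neuroendocrine markers none did. Of 5 fibroblast and endothelial markers COL1A1 and CDH5 did, with a summed level of 19.7 to 38.7 CPM in DMSO, 37.3 to 80.2 in osi_DTP and 32.1 to 63.8 in osi_DTP_AZD5153.

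The first comparison asks which promoters differ between persister cells and drug-free cells. In osi_DTP, 676 promoter regions of 482 genes were called higher and 450 regions of 351 genes lower than in DMSO, at an adjusted p under 0.05 over all 157919 regions tested (edgeR's quasi-likelihood test with Benjamini-Hochberg adjustment). That is 2.78% and 1.85% of the promoter regions, beside a background of 5.58% and 5.13% of all regions tested. Called regions rose by 1.63 to 5.66 on the log2 scale (median 2.6) and fell by 1.58 to 4.78 (median of the size 2.31). The groups did not overlap in normalised CPM for 674 of the 676 and all 450. Of all promoter regions, called or not, 13.5% were apart in the higher and 9.31% in the lower direction. The separation is not a further test of the calls. Over all promoter regions the median log2 fold change was 0.35, against 0.15 over all regions, and it was -0.15 for the promoter regions without osi_DTP replicate 2.

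These counts depended on single libraries. Without osi_DTP_AZD5153 replicate 3, a library that reaches this comparison only by way of the filter, the scaling and the pooled dispersion, 2225 were called higher and 1244 lower (9.16% and 5.12% of promoter regions, with a background of 14.2% and 12.7%). Without DMSO replicate 2 only 47 and 28 were, and without osi_DTP replicate 2 it was 197 and 98. With all scaling and dispersion taken from the promoter regions alone, 392 were higher and 412 lower, so the excess of higher calls was not seen there. The calls that remained whichever of the 9 libraries was left out were 42 higher and 28 lower.

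**Figure D1:**
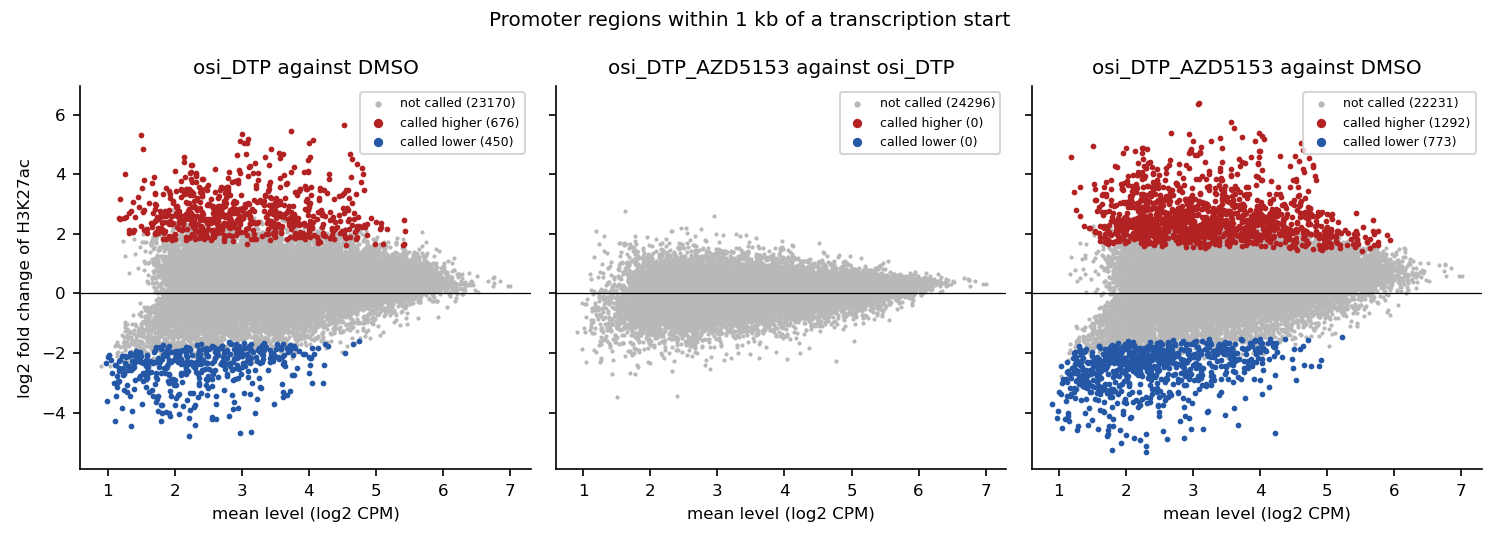
Log2 fold change of H3K27ac (vertical) against mean level in log2 CPM (horizontal) for the 24296 promoter regions in the 3 comparisons, with regions called higher in red, lower in blue and not called in grey. Calls thin out toward the highest levels, where lower calls end before higher ones, and the middle panel, osi_DTP_AZD5153 against osi_DTP, has none.

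Genes named by size came only from called regions at which the groups compared did not overlap. That separation was thus a condition of naming and not a result. The promoters with the largest rises were led by CST5, which encodes the secreted cysteine protease inhibitor cystatin D. Its region (chr20:23880026-23880527, hg38) held 4, 6 and 4 reads in the DMSO libraries, 75, 222 and 242 in osi_DTP and 99, 321 and 36 in osi_DTP_AZD5153. Every treated library was above every DMSO library, and the log2 fold change in osi_DTP was 5.46 ± 0.85 (SE, n = 3 against 3, edgeR adjusted p = 0.00305). The input held 11 reads there, not scaled for depth, and each DMSO library held fewer.

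HMGCS1, cytosolic HMG-CoA synthase of the cholesterol pathway, gained acetylation at another annotated start, 18990 bp from the 5′ end of the gene (chr5:43293921-43294422). Its counts were 15, 11 and 8 in DMSO, 143, 175 and 201 in osi_DTP and 340, 299 and 54 in osi_DTP_AZD5153, a rise of 4.12 ± 0.65 in osi_DTP (edgeR adjusted p = 0.00315). MTMR14, a phosphoinositide phosphatase, behaved alike at another annotated start (chr3:9669671-9670172) with 8, 9 and 14 reads in DMSO, 156, 127 and 190 in osi_DTP and 360, 248 and 106 in osi_DTP_AZD5153. That rise was 4.06 ± 0.59 (edgeR adjusted p = 0.00273), and for both genes no treated library came near the DMSO range.

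PIK3IP1, a membrane protein that inhibits PI3K, rose at 3 neighbouring regions. The strongest (chr22:31290948-31291449) held 29, 21 and 23 reads in DMSO, 199, 421 and 189 in osi_DTP and 178, 221 and 513 in osi_DTP_AZD5153, with a change of 3.75 ± 0.73 in osi_DTP (edgeR adjusted p = 0.00618, but 0.0604 without DMSO replicate 2). The osi_DTP and osi_DTP_AZD5153 libraries overlapped each other and were all above DMSO.

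The remaining genes that the rule named among the rises were VEPH1, BANCR (a long noncoding RNA), AKAP6 (an anchor of protein kinase A), MKX (a homeobox factor of tendon), C1GALT1 (the galactosyltransferase of core 1 O-glycans), the pseudogene ECEL1P2, PHLDB1 and MAP2 (a microtubule-associated protein). Their log2 fold changes were 3.69 to 5.14. Of the 12 named rises 8 remained called in all 9 fits with 1 library left out, and MKX, C1GALT1, PIK3IP1 and PHLDB1 lost the call without DMSO replicate 2 (adjusted p of 0.0528 to 0.0623, edgeR). Only CST5, BANCR, C1GALT1, ECEL1P2 and MAP2 rose at the 5′ end of the gene, and the other 7 at other starts.

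Among the falls CNIH3, a subunit associated with glutamate receptors, stood first after a small nucleolar RNA. Its region at another annotated start (chr1:224565433-224565934) held 366, 377 and 263 reads in DMSO, 33, 29 and 20 in osi_DTP and 17, 16 and 5 in osi_DTP_AZD5153. The change was -3.42 ± 0.58 (edgeR adjusted p = 0.00371), with no overlap between DMSO and either treated group, and it remained called in every fit with 1 library left out.

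WWTR1, which encodes the transcriptional coactivator TAZ, fell at another annotated start, 147077 bp from the 5′ end of the gene (chr3:149577210-149577711). Its counts were 236, 389 and 320 in DMSO, 44, 10 and 39 in osi_DTP and 42, 28 and 27 in osi_DTP_AZD5153, a change of -3.28 ± 0.60 (edgeR adjusted p = 0.00464). FHL2, a LIM domain cofactor, fell at another annotated start as well (chr2:105395644-105396145), from 425, 559 and 453 reads in DMSO to 78, 31 and 56 in osi_DTP and 20, 12 and 11 in osi_DTP_AZD5153. That change was -3.02 ± 0.54 (edgeR adjusted p = 0.00432), and the 3 groups did not overlap.

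The other named falls were SNORD114-27, PPP6R1 (a regulatory subunit of protein phosphatase 6), BLOC1S1 (a subunit of a lysosome biogenesis complex), KIAA0586 (a gene of ciliogenesis), AKR1B1 (aldose reductase), MPP1, CAB39 (a partner of the kinase LKB1), PACSIN2 (a membrane-bending protein of endocytosis) and SMAGP, with log2 fold changes of -3.49 to -2.18. Each of these 9 lost the call in 4 to 6 of the fits with 1 library left out, so that of the 12 named falls CNIH3, WWTR1 and FHL2 alone remained called without DMSO replicate 2. All 12 named rises and all 12 named falls were called with the replicate number as a block.

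**Figure D2:**
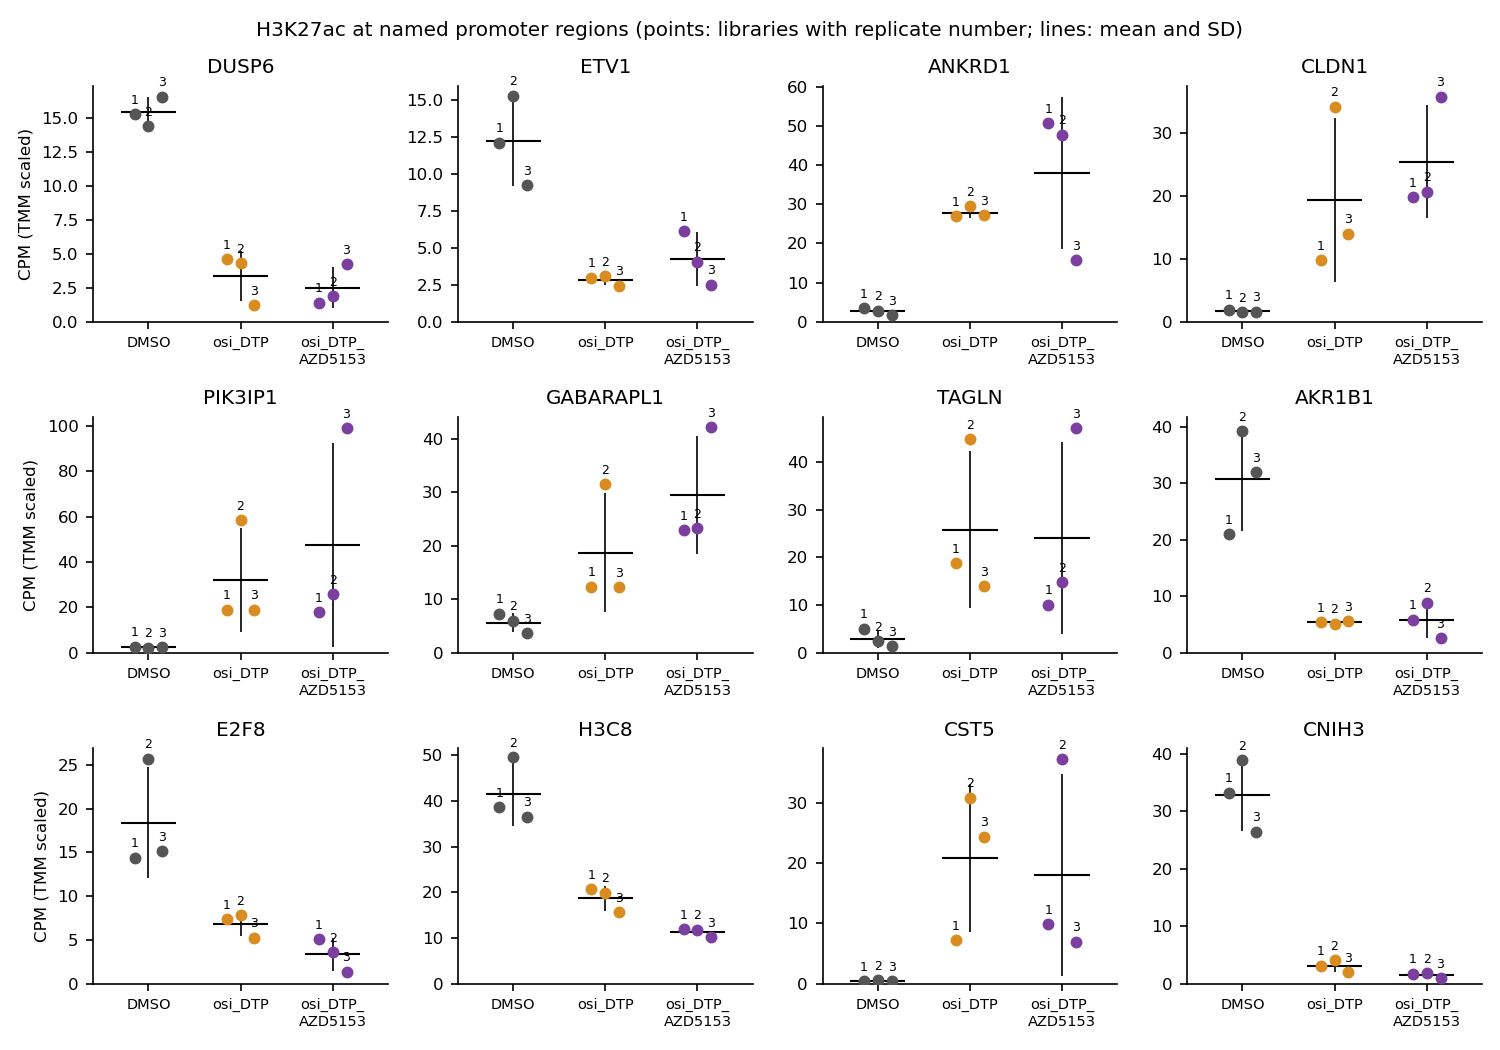
Normalised CPM of H3K27ac at 12 promoter regions in each of the 9 libraries (points with replicate number; lines give mean and SD), with 1 panel per gene, its own linear axis from 0 and the 3 groups side by side. DMSO stands apart from both treated groups in each panel, while the treated groups overlap each other at most genes.

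A run of neighbouring regions annotated as promoters on the long arm of chromosome 14 fell together, and it was picked after its values were seen. Whether these regions are separate promoters was not tested. All 12 promoter regions between 100979441 and 101059403, of 9 noncoding genes (MEG8, 7 small nucleolar RNAs of the SNORD114 family and MIR154), were called lower in osi_DTP, by 3.49 to 4.78 on the log2 scale. This is the imprinted cluster in which the maternal chromosome expresses long noncoding, small nucleolar and micro RNAs. Summed over the 12 regions there were 1056, 2385 and 1491 reads in the DMSO libraries, 100, 47 and 116 in osi_DTP and 75, 117 and 9 in osi_DTP_AZD5153, and 196 in the input.

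Both treated groups thus lay at or below the raw input count, which was not scaled for depth, and DMSO was apart from them with no overlap. MIR154 had the smallest adjusted p of the cluster, at chr14:101058902-101059403, with 127, 318 and 190 reads in DMSO, 7, 3 and 13 in osi_DTP and 8, 9 and 4 in osi_DTP_AZD5153 (-4.68 ± 0.67, edgeR adjusted p = 0.00273). All 12 were also called lower in osi_DTP_AZD5153 against the same DMSO libraries, by 3.63 to 4.91. Of 5 other annotated regions within 50000 bp, 2 were called lower in osi_DTP, and their median was -1.57. Without DMSO replicate 2, 5 of the 12 (SNORD114-21, SNORD114-29, SNORD114-31 and both MIR154 regions) remained called in osi_DTP and all 12 in osi_DTP_AZD5153.

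**Figure D3:**
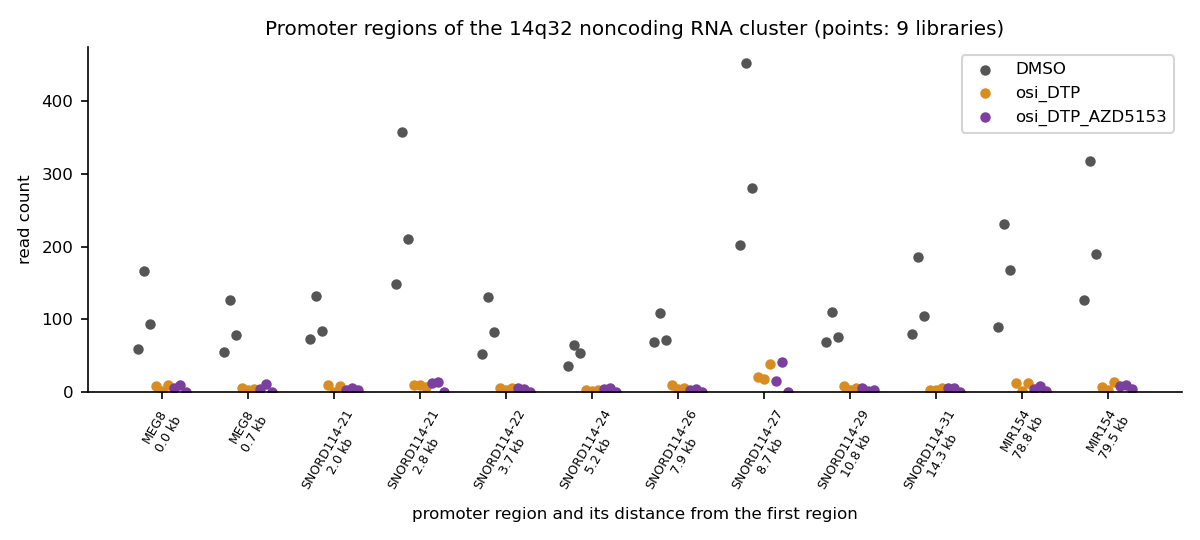
Read counts (vertical, linear) in the 9 libraries (points) at the 12 promoter regions of the chromosome 14 cluster, ordered by distance from the first region and coloured by group. DMSO points lie between 35 and 452 and treated points between 0 and 41.

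The gene groups were described by the number of their promoter regions called over all regions tested and by their median, and the lists were drawn up with earlier results of these data known. The reference for a list's share is the share of all regions tested, 5.58% higher and 5.13% lower in osi_DTP and 9.05% and 9.01% in osi_DTP_AZD5153. Promoter regions as a class were called less often, at 2.78% and 1.85% in osi_DTP and 5.32% and 3.18% in osi_DTP_AZD5153. A list's share below that of all regions can thus lie above that of promoter regions. The reference for a list's median is the median of all promoter regions, 0.35 in osi_DTP and 0.42 in osi_DTP_AZD5153. This median became -0.15 in osi_DTP without osi_DTP replicate 2, and -0.0045 in osi_DTP_AZD5153 without replicate 3 of that group. List medians without these libraries are to be read against those values. Among lists of 10 regions or more, the MAPK group had the largest share of lower calls in osi_DTP, and the small fibroblast group and the YAP and TAZ group had the largest shares of higher calls.

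**Figure D4:**
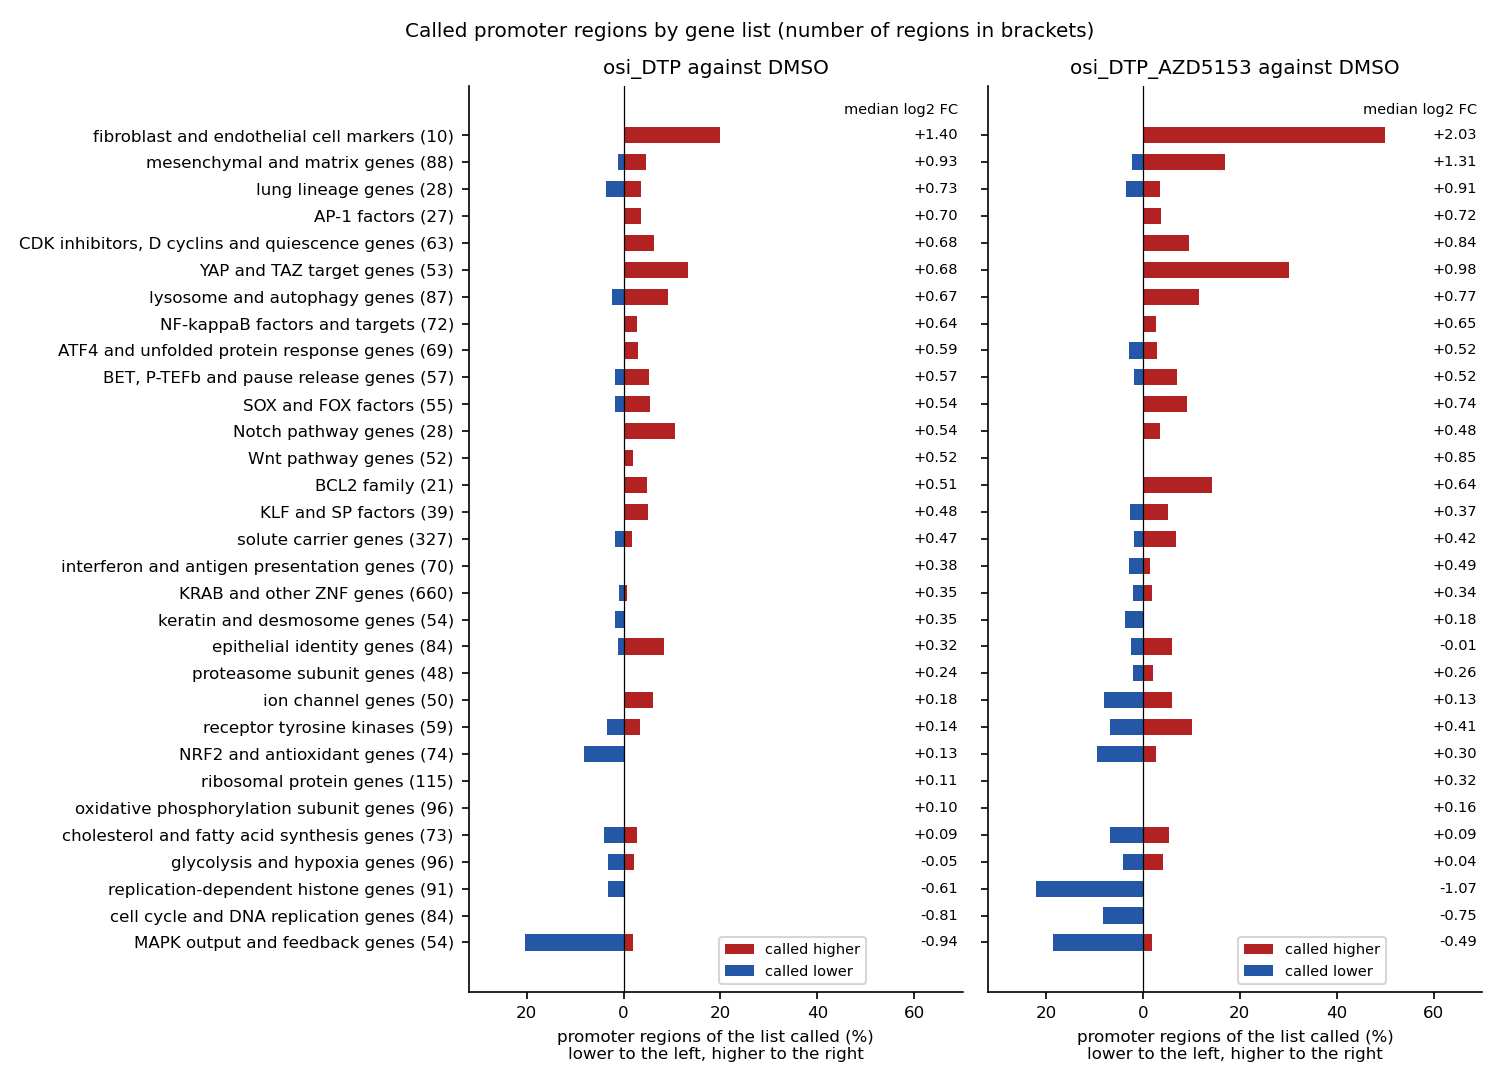
Share of each gene list's promoter regions called higher (red, to the right) or lower (blue, to the left) than DMSO in osi_DTP and in osi_DTP_AZD5153, in percent, with the number of regions in brackets and the median log2 fold change at the right edge. Lists with at least 10 regions are shown, ordered by their median in osi_DTP, from 1.40 for the 10 fibroblast and endothelial marker regions to -0.94 for the 54 MAPK regions.

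Of 54 promoter regions of 18 output and feedback genes of the MAPK pathway, 11 regions of 6 genes were called lower in osi_DTP (20.4%, beside 5.13% of all regions) and 1 higher. The median was -0.94, and 18 of the 54 had a positive change. In osi_DTP_AZD5153 10 were lower (18.5%, beside 9.01%) and 1 higher than DMSO, with a median of -0.49 (-0.77 without replicate 3 of that group). DUSP6, the phosphatase that inactivates ERK, held 169, 139 and 165 reads in DMSO, 48, 31 and 12 in osi_DTP and 14, 16 and 22 in osi_DTP_AZD5153 at chr12:89351720-89352221. DMSO did not overlap either treated group, and the changes were -2.19 ± 0.62 in osi_DTP (edgeR adjusted p = 0.0317, 0.0567 with the replicate block) and -2.65 ± 0.64 in osi_DTP_AZD5153 (edgeR adjusted p = 0.00999).

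ETV1, an ETS factor downstream of ERK, fell at both regions over its start, the stronger (chr7:13990971-13991472) from 112, 153 and 105 reads in DMSO to 28, 23 and 20 in osi_DTP and 47, 36 and 27 in osi_DTP_AZD5153. Its change passed the test in osi_DTP (-2.21 ± 0.54, edgeR adjusted p = 0.0157) and not in osi_DTP_AZD5153 (-1.37 ± 0.52, adjusted p = 0.0744), and the difference between these was not tested. DUSP4, another ERK-directed phosphatase, had 118, 150 and 108 reads in DMSO and 32, 35 and 11 in osi_DTP (-2.04 ± 0.60, edgeR adjusted p = 0.037). The single higher call was at another annotated start of ETV4, which was 1 of 5 genes with promoter regions called in both directions in osi_DTP. None of the 11 lower calls in osi_DTP and 3 of the 10 in osi_DTP_AZD5153 remained without DMSO replicate 2, and without osi_DTP replicate 3 none of the 11 did.

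Of 53 promoter regions of 21 target genes of YAP and TAZ, the coactivators of the Hippo pathway, 7 regions of 6 genes were called higher (13.2%, beside 5.58% of all regions) and 0 lower in osi_DTP. In osi_DTP_AZD5153 16 regions of 10 genes were higher (30.2%, beside 9.05%) and 0 lower. The medians were 0.68 and 0.98, and that in osi_DTP was 0.39 without osi_DTP replicate 2 and 0.43 with a loess offset. ANKRD1, a muscle ankyrin repeat protein and a widely used readout of YAP, had 38, 27 and 17 reads in DMSO, 281, 213 and 270 in osi_DTP and 506, 411 and 81 in osi_DTP_AZD5153 (chr10:90920115-90920616). The treated libraries were all above DMSO, with changes of 3.39 ± 0.60 (edgeR adjusted p = 0.00417) and 3.84 ± 0.61 (adjusted p = 0.00145), and it was the only call of the list that remained in all 9 fits with 1 library left out in both comparisons.

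AMOTL2, a scaffold that retains YAP in the cytoplasm, rose at 2 regions in osi_DTP (1 of them with an adjusted p of 0.054 with the replicate block), of which chr3:134372502-134373003 went from 57, 26 and 41 reads in DMSO to 119, 141 and 247 in osi_DTP and 228, 190 and 158 in osi_DTP_AZD5153 (2.22 ± 0.55 and 2.65 ± 0.56, edgeR adjusted p = 0.0177 and 0.00498). The secreted matrix proteins CCN1 and CCN2 belong to this list too, and CCN1 passed the test in osi_DTP_AZD5153 only by a narrow margin (1.49 ± 0.50, edgeR adjusted p = 0.0458). Of the 7 calls in osi_DTP and the 16 in osi_DTP_AZD5153, 1 each remained without DMSO replicate 2. With the replicate block 4 of the 7 did. The letters GGAATG stood in 5 of the 14 windows of these genes (35.7%), against 10.8% of windows with a promoter region. They also stood in 5 of 21 windows (23.8%) of interferon and antigen presentation genes, a list without a call in osi_DTP.

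Of 88 promoter regions of 30 mesenchymal and matrix genes, 4 were called higher in osi_DTP (4.55%, beside 5.58% of all regions) and 1 lower, and 15 higher (17%, beside 9.05%) and 2 lower in osi_DTP_AZD5153. The medians were 0.93 (0.48 without osi_DTP replicate 2) and 1.31 (0.67 without osi_DTP_AZD5153 replicate 3). TAGLN, the actin-binding protein transgelin of smooth muscle, rose at both regions over its start. The upstream one (chr11:117198576-117199077) held 48, 23 and 13 reads in DMSO, 179, 201 and 165 in osi_DTP and 158, 128 and 107 in osi_DTP_AZD5153.

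All treated libraries of TAGLN were above DMSO, with changes of 2.93 ± 0.60 (edgeR adjusted p = 0.00721) and 2.67 ± 0.59 (adjusted p = 0.00635). VIM, the intermediate filament vimentin, had 113, 56 and 28 reads in DMSO, 124, 149 and 56 in osi_DTP and 240, 149 and 159 in osi_DTP_AZD5153, where it passed the test (1.93 ± 0.63, edgeR adjusted p = 0.0405). The osi_DTP libraries of VIM overlapped DMSO. LTBP2, a binding protein of latent TGF-beta, went the opposite way at another annotated start, with a change of -2.57 ± 0.64 in osi_DTP (edgeR adjusted p = 0.0178).

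PDGFRB, the platelet-derived growth factor receptor of mesenchymal cells, was among the 10 fibroblast and endothelial regions, with 53, 18 and 20 reads in DMSO, 150, 242 and 99 in osi_DTP and 213, 144 and 267 in osi_DTP_AZD5153 at another annotated start (2.73 ± 0.67 and 3.36 ± 0.69, edgeR adjusted p = 0.0174 and 0.00443). Of these 10 regions of 5 genes, 2 were higher in osi_DTP (20%, beside 5.58% of all regions) and 5 in osi_DTP_AZD5153 (50%, beside 9.05%). Both calls in osi_DTP were of PDGFRB, and the 5 in osi_DTP_AZD5153 came from 2 genes. The medians were 1.40 and 2.03 (1.07 without osi_DTP_AZD5153 replicate 3). COL3A1, DCN and PECAM1 had no promoter region, and a part of other cell types in these changes was not tested. None of the 4 mesenchymal calls in osi_DTP and none of the 15 in osi_DTP_AZD5153 remained without DMSO replicate 2. Of the fibroblast and endothelial calls, 0 of the 2 and 1 of the 5 did.

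Genes of the cell cycle and DNA replication had medians below 0 in both treated groups. None of their 84 promoter regions was called in osi_DTP by edgeR with all libraries, where 23 had an unadjusted p under 0.05 and DESeq2 called 18 lower and 1 higher. The median was -0.81 (-1.37 without osi_DTP replicate 2) and 70 of the 84 had a negative change, and without osi_DTP_AZD5153 replicate 3 there were 21 lower and 1 higher calls. In osi_DTP_AZD5153, 7 regions of 6 genes were lower than DMSO (8.33%, beside 9.01% of all regions), with a median of -0.75. Without replicate 3 of that group 37 were lower and the median was -1.17. E2F8, a repressor of the E2F family that peaks in S phase, held 159, 249 and 150 reads in DMSO, 77, 56 and 52 in osi_DTP and 51, 31 and 7 in osi_DTP_AZD5153.

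DMSO did not overlap the treated groups at E2F8, and the change passed the test in osi_DTP_AZD5153 (-2.43 ± 0.60, edgeR adjusted p = 0.0106) but not in osi_DTP (-1.44 ± 0.57, adjusted p = 0.114). BUB1, a kinase of the spindle checkpoint, had 99, 164 and 107 reads in DMSO, 35, 90 and 27 in osi_DTP and 32, 19 and 23 in osi_DTP_AZD5153, where the change was -1.90 ± 0.65 (edgeR adjusted p = 0.0493). The BUB1 call was lost in 7 of the 9 fits with 1 library left out and in 5 other settings. TYMS, thymidylate synthase, changed by -1.82 ± 0.57 in osi_DTP_AZD5153 (edgeR adjusted p = 0.0342), a call lost in 6 of those 9 fits. None of the 7 calls remained without DMSO replicate 2.

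Of the replication-dependent histone genes, which are transcribed in S phase, 91 promoter regions were tested. In osi_DTP 84 of the 91 had a negative change and 3 were called lower (median -0.61, 3.3% beside 5.13% of all regions), and in osi_DTP_AZD5153 88 had a negative change and 20 regions of 15 genes were called lower (median -1.07, 22% beside 9.01%), none higher. H3C8 had 426, 480 and 363 reads in DMSO, 217, 143 and 155 in osi_DTP and 119, 101 and 53 in osi_DTP_AZD5153 at chr6:26271920-26272421. The counts of the 3 groups did not overlap, and the change was -1.15 ± 0.48 in osi_DTP (edgeR adjusted p = 0.134) and -1.88 ± 0.49 in osi_DTP_AZD5153 (adjusted p = 0.0149, but 0.0882 without DMSO replicate 2, 1 of 3 libraries without which the call was lost).

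H1-5, a linker histone, passed the test in both groups (-1.97 ± 0.55 and -2.0 ± 0.55, edgeR adjusted p = 0.0297 and 0.0194), with 112, 155 and 129 reads in DMSO, 36, 32 and 21 in osi_DTP and 26, 38 and 14 in osi_DTP_AZD5153. Of the 20 lower calls 4 (1 each of H3C8, H4C4, H1-1 and H4C11, that of H3C8 at chr6:26270571-26271072 and not the region described above) remained whichever of the 9 libraries was left out, the same number as without DMSO replicate 2 alone. In the windows of 47 histone genes CCAAT stood in 40 (85.1%) and TATAAA in 32 (68.1%), and in those of 37 cell cycle genes CCAAT stood in 27 (73.0%), against 37.3% and 5.15% of all windows with a promoter region. CCAAT also stood in 19 of 26 windows (73.1%) of ATF4 and unfolded protein response genes. The promoter regions of that list had a median of 0.59 in osi_DTP. Lower histone calls in osi_DTP_AZD5153 lay in 2 runs on chromosome 6, with 10 of 28 promoter regions called between 26183956 and 26284888 and 7 of 18 between 27815223 and 27891648.

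Of 63 promoter regions of CDK inhibitors, D cyclins and other genes of quiescence, 4 were called higher (6.35%) and 0 lower in osi_DTP. In osi_DTP_AZD5153 6 were higher (9.52%) and 0 lower. The higher shares were near the 5.58% and 9.05% of all regions tested and above the 2.78% and 5.32% of all promoter regions. The medians were 0.68 (0.072 without osi_DTP replicate 2) and 0.84 (0.23 without osi_DTP_AZD5153 replicate 3). Next to PIK3IP1 these included TXNIP, the inhibitor of thioredoxin that FOXO and MondoA factors induce, with 26, 8 and 22 reads in DMSO, 120, 57 and 121 in osi_DTP and 154, 103 and 34 in osi_DTP_AZD5153 (2.54 ± 0.60 and 2.65 ± 0.60, edgeR adjusted p = 0.0139 and 0.00722). CCNG2 and IRS2, both known FOXO targets, passed the test in osi_DTP_AZD5153 (1.97 ± 0.66 and 2.52 ± 0.61, edgeR adjusted p = 0.0475 and 0.0101), but CCNG2 did not without replicate 3 of that group (0.96, adjusted p = 0.148). None of the 4 and 2 of the 6 calls remained without DMSO replicate 2.

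Lysosome and autophagy genes were called higher at 8 (9.2%, beside 5.58% of all regions) and lower at 2 of 87 promoter regions in osi_DTP and higher at 10 (11.5%, beside 9.05%) and lower at 0 in osi_DTP_AZD5153. The medians were 0.67 (0.088 without osi_DTP replicate 2) and 0.77 (0.17 without osi_DTP_AZD5153 replicate 3). GABARAPL1, which is conjugated to the autophagosome membrane, held 56, 31 and 21 reads in DMSO, 171, 114 and 141 in osi_DTP and 224, 191 and 85 in osi_DTP_AZD5153 (chr12:10213512-10214013). Treated libraries were all above DMSO (2.15 ± 0.55 and 2.55 ± 0.55, edgeR adjusted p = 0.0191 and 0.00562). WIPI1, which binds the forming autophagosome, rose by 1.84 ± 0.54 and 1.85 ± 0.54 at the region inside the gene (edgeR adjusted p = 0.0359 and 0.0249).

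The 2 lower calls in osi_DTP were both at another annotated start of ATG16L1, part of the complex that conjugates the GABARAP family, with 72, 95 and 85 reads in DMSO, 23, 7 and 14 in osi_DTP and 30, 11 and 21 in osi_DTP_AZD5153 at the stronger (-2.42 ± 0.60 in osi_DTP, edgeR adjusted p = 0.0177). TFEB, the master regulator of lysosome genes, passed the test in osi_DTP at 1 of its starts (2.37 ± 0.70, edgeR adjusted p = 0.0385, 0.0884 with the replicate block). None of the 8 higher calls in osi_DTP remained without DMSO replicate 2, and 3 of the 10 in osi_DTP_AZD5153 did, among them both regions of RRAGD, a GTPase of the mTORC1 pathway.

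Genes of lipid synthesis moved in both directions. Of 73 promoter regions of 28 genes, 2 were higher and 3 lower in osi_DTP and 4 higher and 5 lower in osi_DTP_AZD5153. Each share was below that of all regions tested. The higher calls were 2.74% and 5.48%, beside 2.78% and 5.32% of all promoter regions, and the lower calls 4.11% and 6.85%, beside 1.85% and 3.18%. The medians were 0.094 and 0.088. The rises were led by HMGCS1, described above. SREBF1, the transcription factor that drives fatty acid synthesis, held 246, 264 and 207 reads in DMSO, 79, 48 and 27 in osi_DTP and 33, 24 and 25 in osi_DTP_AZD5153 at another annotated start (chr17:17823864-17824365), where DMSO did not overlap the treated groups.

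Its changes were -2.05 ± 0.56 and -2.69 ± 0.58 (edgeR adjusted p = 0.0271 and 0.00549). SCD, the desaturase of fatty acids, fell upstream of its start from 204, 282 and 223 reads in DMSO to 77, 54 and 67 in osi_DTP and 39, 21 and 16 in osi_DTP_AZD5153 (-1.69 ± 0.52 and -2.88 ± 0.55, edgeR adjusted p = 0.043 and 0.00286). HMGCS1 in both comparisons, and SCD and SREBF1 in osi_DTP_AZD5153, remained called in all 9 fits with 1 library left out, whereas without DMSO replicate 2 none of the 3 lower calls in osi_DTP did. Both medians of this list were below 0 with library sizes without TMM scaling (-0.096 and -0.19), with a loess offset (-0.19 and -0.069) and with scaling from promoter regions alone (-0.21 and -0.36).

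Antioxidant genes regulated by NRF2 were called at 6 lower and 0 higher of 74 promoter regions in osi_DTP, and at 7 lower and 2 higher in osi_DTP_AZD5153, with medians of 0.13 and 0.30 (-0.094 and -0.13 with scaling from promoter regions alone, and -0.22 without osi_DTP replicate 2 and -0.17 without osi_DTP_AZD5153 replicate 3). The lower calls were 8.11% and 9.46% of the regions, beside 5.13% and 9.01% of all. AKR1B1 accounted for 3 of the lower calls in osi_DTP and 4 of the 7 in osi_DTP_AZD5153, all near another annotated start, of which the strongest in osi_DTP (chr7:134448401-134448902) held 232, 380 and 317 reads in DMSO, 56, 37 and 55 in osi_DTP and 58, 76 and 13 in osi_DTP_AZD5153. ABCC3, an export pump, had lower calls in osi_DTP only (-1.70 ± 0.51 at the region of the larger count, edgeR adjusted p = 0.0391, against -0.94 ± 0.50 and 0.206 in osi_DTP_AZD5153), and the difference was not tested. TXNRD1, a thioredoxin reductase that was called higher in osi_DTP_AZD5153, lost its call without replicate 3 of that group (adjusted p = 0.0735, edgeR). Without DMSO replicate 2 none of the 6 lower calls remained in osi_DTP and 3 of 7 in osi_DTP_AZD5153.

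Epithelial identity genes had 7 higher and 1 lower calls among 84 promoter regions in osi_DTP and 5 and 2 in osi_DTP_AZD5153. The higher calls were 8.33% and 5.95% of the regions, beside 5.58% and 9.05% of all. The medians were 0.32 (-0.084 without osi_DTP replicate 2) and -0.0092, and without osi_DTP_AZD5153 replicate 3 the latter was -0.54, with 5 higher and 10 lower calls. CLDN1, a tight junction protein, held 21, 15 and 16 reads in DMSO, 102, 246 and 139 in osi_DTP and 198, 178 and 185 in osi_DTP_AZD5153 over its start (chr3:190322002-190322503). All treated libraries were far above DMSO (3.50 ± 0.63 and 3.90 ± 0.64, edgeR adjusted p = 0.00449 and 0.00163).

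CLDN7, another claudin, fell at another annotated start (-1.73 ± 0.55 and -2.70 ± 0.58, edgeR adjusted p = 0.0494 and 0.0056). ELF3, an epithelial ETS factor, rose at 3 regions around another annotated start, from 21, 25 and 42 reads in DMSO to 117, 388 and 310 in osi_DTP and 50, 120 and 225 in osi_DTP_AZD5153 at the middle one (3.46 ± 0.79 and 2.83 ± 0.77, edgeR adjusted p = 0.012 and 0.0184). Without DMSO replicate 2 none of the 7 rises in osi_DTP remained, and CLDN1 alone did of the 5 in osi_DTP_AZD5153.

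Receptor tyrosine kinases had 2 higher and 2 lower calls among 59 promoter regions in osi_DTP (3.39% each) and 6 and 4 in osi_DTP_AZD5153 (10.2% and 6.78%, beside 9.05% and 9.01% of all regions), where without replicate 3 of that group it was 6 and 12. EGFR, the target of osimertinib, was lower at another annotated start (chr7:55108763-55109264) with 247, 298 and 206 reads in DMSO, 69, 20 and 65 in osi_DTP and 68, 41 and 13 in osi_DTP_AZD5153 (-2.20 ± 0.58 and -2.37 ± 0.59, edgeR adjusted p = 0.0227 and 0.0109). FGFR1 was lower at another annotated start too, with 44, 62 and 46 reads in DMSO, 9, 2 and 5 in osi_DTP and 3, 2 and 2 in osi_DTP_AZD5153 (-3.13 ± 0.66 and -4.0 ± 0.73, edgeR adjusted p = 0.00854 and 0.00233). The 2 higher calls in osi_DTP were both of PDGFRB, and KIT and ROR1 joined it in osi_DTP_AZD5153. Leaving out DMSO replicate 2 kept none of the 4 calls in osi_DTP and 3 of the 10 in osi_DTP_AZD5153.

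Genes of the BET family and of pause release, whose proteins AZD5153 acts on or near, had 3 higher and 1 lower calls among 57 promoter regions in osi_DTP and 4 and 1 in osi_DTP_AZD5153. The higher calls were 5.26% and 7.02% of the regions. That is below the 5.58% and 9.05% of all regions tested and above the 2.78% and 5.32% of all promoter regions. The medians were 0.57 (-0.04 without osi_DTP replicate 2) and 0.52 (0.26 without osi_DTP_AZD5153 replicate 3). BRD3 rose at 2 regions of another annotated start, from 72, 32 and 58 reads in DMSO to 233, 355 and 168 in osi_DTP and 152, 131 and 242 in osi_DTP_AZD5153 at the stronger (2.49 ± 0.64 and 2.29 ± 0.63, edgeR adjusted p = 0.0204 and 0.0196). ELL2, a subunit of the super elongation complex, fell at another annotated start (-2.15 ± 0.61 and -2.65 ± 0.64, edgeR adjusted p = 0.0322 and 0.00968). None of these calls remained without DMSO replicate 2.

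Housekeeping groups showed few calls. No promoter region of the 115 of ribosomal protein genes or the 96 of oxidative phosphorylation subunits was called against DMSO in either treated group by edgeR or by DESeq2, or had an unadjusted p under 0.05 with edgeR, and proteasome subunits (48 regions) had 0 in osi_DTP and 1 in each direction in osi_DTP_AZD5153. Their medians were 0.10 to 0.24 in osi_DTP and 0.16 to 0.32 in osi_DTP_AZD5153. The 8 HOX gene regions had 0 calls with edgeR and with DESeq2, and 1 had an unadjusted p under 0.05 in osi_DTP. In the fit without osi_DTP_AZD5153 replicate 3 the ribosomal and oxidative phosphorylation lists had no call in osi_DTP, and the proteasome and HOX lists had 1 higher each. In osi_DTP_AZD5153 the ribosomal genes had 1 lower and the oxidative phosphorylation subunits 1 higher and 5 lower. The proteasome subunits had 2 higher and 1 lower there, and the HOX genes had 0.

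For the other lists the calls are given as higher and lower, in osi_DTP and then in osi_DTP_AZD5153. Zinc finger genes (660 regions) had 5 and 6 (0.758% and 0.909%), then 12 and 14 (1.82% and 2.12%). Solute carriers (327) had 6 and 6 (1.83% each), then 22 and 6 (6.73% and 1.83%). Glycolysis and hypoxia genes (96) had 2 and 3 (2.08% and 3.12%), then 4 and 4 (4.17% each). These lists moved both ways. Each of their shares was below that of all regions tested, though not always below that of all promoter regions.

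NF-kappaB factors and targets (72 regions) had 2 and 0, then 2 and 0, interferon and antigen presentation genes (70) had 0 and 0, then 1 and 2, and ATF4 and unfolded protein response genes (69) had 2 and 0, then 2 and 2. SOX and FOX factors (55) had 3 and 1, then 5 and 0, keratin and desmosome genes (54) had 0 and 1, then 0 and 2, and Wnt pathway genes (52) had 1 and 0, then 0 and 0. Ion channel genes (50) had 3 and 0, then 3 and 4, and KLF and SP factors (39) had 2 and 0, then 2 and 1. Most of these groups had fewer than 5 calls in any direction. Their highest shares were 6% (ion channel genes, higher) in osi_DTP and 9.09% (SOX and FOX factors, higher) in osi_DTP_AZD5153. Of all regions tested 5.58% and 9.05% were called higher there, and of all promoter regions 2.78% and 5.32%.

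Lung lineage genes (28 regions) had 1 and 1, then 1 and 1, Notch pathway genes (28) had 3 and 0, then 1 and 0, AP-1 factors (27) had 1 and 0, then 1 and 0, and the BCL2 family (21) had 1 and 0, then 3 and 0. Among these lists the only shares above those of all regions tested came from 3 regions each. They were 10.7% higher for Notch pathway genes in osi_DTP and 14.3% higher for the BCL2 family in osi_DTP_AZD5153. The Notch calls in osi_DTP were all lost with the replicate block, and also when any single DMSO library was left out. Without DMSO replicate 2 none of the 3 BCL2 family calls remained. HRK and BMF, pro-apoptotic members, were the ones called in the BCL2 family. HRK had an adjusted p of 0.0624 in osi_DTP with the replicate block, and BMF lost its call without osi_DTP_AZD5153 replicate 3 (1.31, edgeR adjusted p = 0.0549). The remaining lists are markers of other cells, with 0 and 1, then 0 and 0 of 5 hematopoietic regions (CD79A in osi_DTP, adjusted p = 0.0521 with the replicate block) and 0 and 1, then 0 and 2 of 3 neuroendocrine regions (POU2F3, a factor of tuft cells).

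The second comparison asks what AZD5153 added to osimertinib. Between osi_DTP_AZD5153 and osi_DTP no promoter region was called in either direction by edgeR with all libraries, as no region anywhere was (0% of 157919). At an unadjusted p under 0.05 there were 435 promoter regions, beside 4.44% of all regions. DESeq2 called 2 higher and 2 lower (background 0.0154% and 0.0535%), and voom with library quality weights, which gave osi_DTP_AZD5153 replicate 3 a weight of 0.144, called 203 and 402 (background 1.88% and 1.79%). The median change of promoter regions was 0.08 with all libraries and -0.34 without osi_DTP_AZD5153 replicate 3, where the median of all regions was -0.17.

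Without that replicate 2 promoter regions were called higher and 25 lower (background 0.0637% and 0.0587%). With 2 libraries left in the group, the rule that names genes gave 4 falls and no rise. CTDSP1, a phosphatase of the tail of RNA polymerase II, held 266, 419 and 200 reads in osi_DTP and 28, 20 and 87 in osi_DTP_AZD5153 at another annotated start (chr2:218398681-218399182), with 394, 438 and 357 in DMSO. The change was -3.75 ± 0.58 without replicate 3 (edgeR adjusted p = 0.0281) and -2.27 with it (adjusted p = 1.0).

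TYMP, thymidine phosphorylase, and the adjacent ODF3B share 1 stretch of chromosome 22, and TYMP held 147, 365 and 106 reads in osi_DTP, 25, 16 and 77 in osi_DTP_AZD5153 and 227, 298 and 209 in DMSO. Their changes were -3.52 ± 0.66 and -3.51 ± 0.66 without replicate 3 (edgeR adjusted p = 0.0404 for both) and -2.0 and -2.21 with it. NAT14 had 36, 22 and 238 reads in osi_DTP_AZD5153 against 294, 188 and 192 in osi_DTP, so that replicate 3 alone stood at the osi_DTP level (-2.99 ± 0.61 without it, edgeR adjusted p = 0.0492, and -0.51 with it). At all 4 at least 1 osi_DTP library reached or exceeded the DMSO range. At CTDSP1 and TYMP this was replicate 2 alone, and osi_DTP replicates 1 and 3 had fewer reads than any DMSO library.

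The last comparison sets osi_DTP_AZD5153 against DMSO and shares the DMSO libraries with the first. There 1292 promoter regions of 861 genes were called higher and 773 of 588 genes lower, 5.32% and 3.18% of the promoter regions, beside a background of 9.05% and 9.01%. The sizes were 1.42 to 6.38 for rises (median 2.39) and 1.46 to 5.31 for falls (median 2.35). Without replicate 3 of the treated group 2029 were higher and 2295 lower (8.35% and 9.45%, background 18.4% and 17.3%), so the excess of rises turned into a small excess of falls, and the median of the promoter regions went from 0.42 to -0.0045. Without DMSO replicate 2 there were 287 and 241, with library sizes without TMM scaling 994 and 1022, and with scaling from promoter regions alone 1109 and 1256. In every fit with 1 library left out 254 of the rises and 223 of the falls remained.

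Of the 12 rises named here, CST5, VEPH1, MTMR14, C1GALT1, HMGCS1, PHLDB1, BANCR and PIK3IP1 were also named in osi_DTP. The other 4 were MCC, the integrin subunit ITGB5, the parathyroid hormone receptor PTH1R and the RNA-binding protein BICC1. MCC, a gene mutated in some colorectal cancers, held 24, 10 and 3 reads in DMSO, 137, 158 and 59 in osi_DTP and 243, 148 and 228 in osi_DTP_AZD5153 at its 5′ end (chr5:113487897-113488398), with changes of 3.52 ± 0.74 and 4.58 ± 0.77 (edgeR adjusted p = 0.00854 and 0.00178).

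PTH1R had 21, 11 and 15 reads in DMSO, 54, 157 and 140 in osi_DTP and 213, 345 and 167 in osi_DTP_AZD5153. The latter were all above the former in raw counts, but in CPM the treated groups overlapped. All 12 remained called in every fit with 1 library left out, and without replicate 3 of the treated group their changes were 3.18 (PIK3IP1) to 5.64 (CST5). Within osi_DTP_AZD5153 8 of the 12 (CST5, VEPH1, BANCR, HMGCS1, MTMR14, C1GALT1, PHLDB1 and PTH1R) had their lowest count in replicate 3, and in CPM 7 did, without PTH1R. C1GALT1 stood there at 20 reads beside 326 and 574.

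Among the named falls, CNIH3, SNORD114-27, BLOC1S1, PPP6R1, KIAA0586 and WWTR1 were those of osi_DTP, and DZIP1L (a gene of cilia), RALB, FPR2, WDR25, IL4R and SEMA3C were added. RALB, a RAS-like GTPase, held 462, 602 and 452 reads in DMSO, 112, 101 and 126 in osi_DTP and 45, 52 and 49 in osi_DTP_AZD5153 upstream of its start (chr2:120239197-120239698), with no overlap of the 3 groups in counts. Its changes were -2.0 ± 0.52 and -2.91 ± 0.54 (edgeR adjusted p = 0.0211 and 0.00257).

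IL4R, the interleukin 4 receptor, had 268, 228 and 196 reads in DMSO, 115, 82 and 59 in osi_DTP and 27, 26 and 28 in osi_DTP_AZD5153, and passed the test in the latter only (-2.61 ± 0.57, edgeR adjusted p = 0.0056, against -1.25 ± 0.53 and 0.141). Its change between the treated groups was -1.36 (adjusted p = 1.0) and -1.72 ± 0.50 without replicate 3 (adjusted p = 0.0979, edgeR). SEMA3C, a secreted semaphorin, and WDR25, a WD repeat protein, had 2 and 8 reads in osi_DTP_AZD5153 replicate 3 beside 62 and 69, and 55 and 57, in the others. Of the 12 falls 9 remained called throughout, the exceptions being PPP6R1, KIAA0586 and SEMA3C.

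The kind of promoter went with the share of calls. Of the 24296 regions 16453 lay within 1 kb of the 5′ end of the RefSeq gene and 7830 at another start of it. In osi_DTP 1.73% of the former were called higher and 1.12% lower, against 4.99% and 3.4% of the latter, and in osi_DTP_AZD5153 it was 3.75% and 1.94% against 8.62% and 5.8%. Among the 13919 regions with a RefSeq window, those with a low CpG content of the window (observed over expected under 0.35, 894 regions) were called higher in 5.93% and lower in 3.91% in osi_DTP, and those over 0.65 (11439 regions) in 1.07% and 0.525%.

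Level went with both of these features. In the lowest of 5 equal bins of promoter regions by mean CPM, regions were called higher in 5.1% and lower in 5.56% in osi_DTP, and in the highest bin in 0.741% and 0.0412%. In the lowest bin 50.6% of regions lay at the 5′ end of the gene and in the highest 77.2%, and counts near the limit of 1 read per position fall in the highest. Within a bin the shares still differed by start, with 3.78% higher and 4.19% lower at the 5′ end against 6.47% and 6.97% at other starts in the lowest bin in osi_DTP, and 0.373% and 0% against 1.99% and 0.181% in the highest. With counts corrected for that limit the calls in osi_DTP were 753 higher and 408 lower. Among 55 regions of small nucleolar RNA genes 8 (14.5%) were lower in osi_DTP, and all 8 lay in the chromosome 14 cluster described above.

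**Figure D5:**
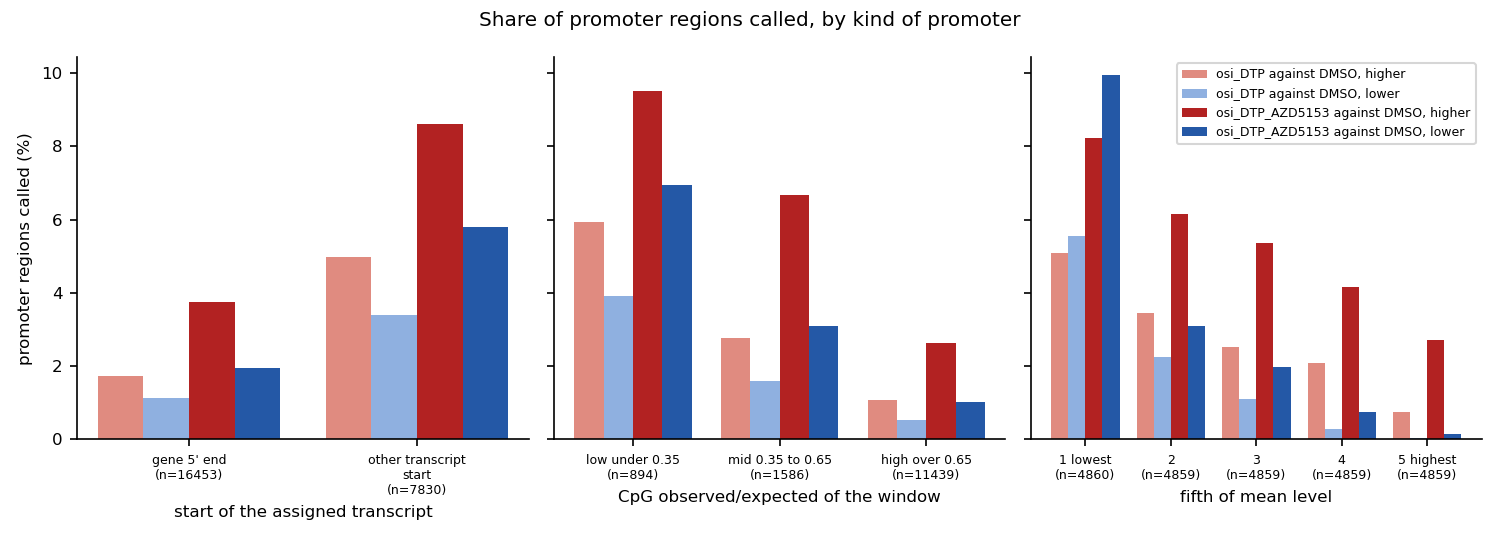
Share of promoter regions called higher (reds) and lower (blues) than DMSO in osi_DTP (light) and osi_DTP_AZD5153 (dark), in percent from 0, by the start of the assigned transcript, by CpG observed over expected of the RefSeq window and by 5 equal bins of mean level. Shares are larger at other starts, at low CpG content and at low level, where they reach 9.94% for lower calls in osi_DTP_AZD5153.

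The peak lists, called in each library on its own, gave a view of presence and absence. Each list overlapped 88.1% to 95.4% of the promoter regions by at least 1 bp, and 16009 regions (65.9%) had a peak in all 9 libraries. A peak was present in all 3 osi_DTP libraries and absent from all 3 DMSO libraries at 844 regions of 646 genes, and the reverse held at 509 regions of 418 genes, of which 426 and 271 were called by the counts. Against osi_DTP, osi_DTP_AZD5153 had 33 such gains and 81 such losses, of which 0 and 0 were called by the counts. Against DMSO it had 735 and 596, of which 500 and 435 were called. The share of all regions with such patterns is not given here. Of the regions called higher in osi_DTP 67 had a peak in every library of both groups, and of those called lower 62 did.

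The change at a promoter went with changes at other regions of its gene. Of 336 genes with a promoter called higher in osi_DTP and other annotated regions, 58.0% had another region called higher and 13.7% one called lower, against 20.6% and 21.3% of all 6044 genes with both kinds. Of 257 genes with a promoter called lower, 66.5% had another region called lower and 9.73% one called higher. In osi_DTP_AZD5153 the shares in the same direction were 67.8% for rises and 68.7% for falls, against 27.3% and 31.2%. Among genes with 2 or more promoter regions, 144 had 2 or more called higher and 85 had 2 or more called lower in osi_DTP, and 5 (ATP2C1, ETV4, HIVEP3, PAPLN and SPIDR) had both. In osi_DTP_AZD5153 there were 11 with both, WWTR1 among them.

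The share of windows holding a motif's letters differed between genes with called promoter regions and all genes with a promoter region for several motifs. TGACTCA stood in 10.0% of 100 windows of genes with a lower promoter region in osi_DTP and in 11.2% of 188 in osi_DTP_AZD5153, against 3.41% of the 8852 windows with a promoter region and 4.05% of 173 and 3.7% of 378 windows of genes called higher. The ETS letters CCGGAAG stood in 5.78% and 8.0% of windows called higher and lower in osi_DTP, against 20.6%, and GGGCGG in 59.0% and 46.0%, against 72.3%. GCGCATGC stood in 1.73% and 2.0%, against 6.04%, CACGTG in 4.05% and 6.0%, against 10.5%, and TATAAA in 10.4% and 7.0%, against 5.15%. CCAAT stood in 34.7% of windows called higher and 45.0% of those called lower in osi_DTP, against 37.3%. These windows differ in CpG content as well, with a median observed over expected of 0.703 and 0.664 against 0.849, and the part of CpG content in the shares was not tested.

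Promoters as a class were not shown to gain or lose signal relative to other annotated regions. The median log2 level of promoter regions above that of the other annotated regions was 0.604, 0.593 and 0.474 in the DMSO libraries, 0.589, 1.52 and 0.334 in osi_DTP and 0.488, 0.387 and 2.01 in osi_DTP_AZD5153. The high values were those of osi_DTP replicate 2 and osi_DTP_AZD5153 replicate 3, and without them the treated groups lay within or below the DMSO range. The differences between group means were 0.26 for osi_DTP against DMSO, 0.15 for osi_DTP_AZD5153 against osi_DTP and 0.40 for osi_DTP_AZD5153 against DMSO, with p of 0.9, 0.8 and 0.9 (exact permutation test, two-sided, n = 3 against 3, which cannot go below 0.1).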

How the data were processed

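H3K27ac ChIP-seq was analysed in 9 libraries of H1975 cells, 3 each of DMSO, osi_DTP and osi_DTP_AZD5153, with 1 pooled input, grouped by their labels. The authors immunoprecipitated 30 µg of sheared chromatin and sequenced 75-nt single-end reads. The submitters' processing notes name BWA 0.7.17, MACS2 2.2.6, featureCounts 2.0.0, ChIPseeker 1.29.1 and the build hg38. The deposited tables hold raw counts per 502-bp region, with an annotation for 67387 of them. The deposited peak lists, 1 per library, give fold enrichment and -log10 of p and q as the authors' peak caller wrote them, and were used only for overlap of at least 1 bp with a region.

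Regions were filtered on low counts with edgeR's filterByExpr, which all 24296 promoter regions passed, and 157919 regions of all classes were fitted together with TMM scaling and edgeR's quasi-likelihood test (edgeR 4.0.16, R 4.3.3), using all 3 groups. P-values were adjusted over all regions by Benjamini-Hochberg. A call was an adjusted p under 0.05. SE is that of the log2 fold change. The fitting code was tested on simulated data. Alternatives were DESeq2 1.42.0, voom with library quality weights (limma 3.58.1), library sizes without TMM, a loess offset, no filter, promoter regions alone, counts corrected for saturation, the compared pair of groups alone, a replicate block and leaving out each library. Totals of 6263443 to 10463351 counts limit the precision at low counts, and the highest count of 1148 lies just under the 1152 that 1 read per position and strand allows. Whether duplicate reads were removed is not given in the sources used here.

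Deviations of same-numbered libraries correlated at r of 0.358, 0.373 and 0.354 between osi_DTP and DMSO, so the numbers were taken to pair those groups. They did not for osi_DTP_AZD5153 against DMSO (0.00466, 0.534 and 0.337) or against osi_DTP (0.296, -0.0493 and -0.305). The main fit used no pairing, so its calls in osi_DTP against DMSO leave that pairing out. Counts with the replicate block are given below.

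The members and gene lists were chosen with earlier results of these data known. Named genes were the 12 largest changes per comparison and direction among called regions with groups that did not overlap and a mean level above the promoter median, with 1 region per gene (that of the highest mean count), without LINC, LOC, MIR, antisense, divergent, open reading frame and dotted symbols. For osi_DTP_AZD5153 against osi_DTP up to 8 per direction came from the fit without osi_DTP_AZD5153 replicate 3. From each gene list at most 4 called regions per comparison, those of the highest mean count, were eligible, and other names were chosen after their values were seen. CpG content, motifs and sequences came from RefSeq windows of GRCh38.p14, 250 bases before to 50 after a gene start, matched by gene. The values of some single genes are not reported here.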

Additional observations from a re-analysis of the deposited data

How the results depend on the processing

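Leaving out single libraries and changing the tool or the libraries fitted moved the counts of calls, and the causes were not tested. In osi_DTP against DMSO, leaving out 1 library gave 47 to 2225 higher and 28 to 1244 lower promoter regions, with the lowest counts without DMSO replicate 2 and the highest without osi_DTP_AZD5153 replicate 3. In osi_DTP_AZD5153 against DMSO it gave 287 to 2029 higher and 241 to 2295 lower, and in osi_DTP_AZD5153 against osi_DTP 0 to 2 higher and 0 to 25 lower.

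With voom and quality weights there were 2088 higher and 2031 lower in osi_DTP, 4118 and 3572 in osi_DTP_AZD5153 against DMSO and 203 and 402 against osi_DTP. DESeq2 gave 943 lower in osi_DTP, 2130 higher in osi_DTP_AZD5153 against DMSO, and 2 higher and 2 lower against osi_DTP. Fitting the pair alone gave 2344 higher and 1108 lower in osi_DTP and 442 lower in osi_DTP_AZD5153, and promoter regions alone gave 392 higher in osi_DTP and 1256 lower in osi_DTP_AZD5153.

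With the replicate block osi_DTP had 550 higher and 453 lower promoter regions, and osi_DTP_AZD5153 1024 and 859 against DMSO. Of the single promoter regions eligible to be named, 28 of 126 lost their call in osi_DTP with the block, and the adjusted p stands beside each of these whose values are described above. In osi_DTP_AZD5153 against DMSO, where the numbers do not pair the libraries, 25 of 180 did. None of them changed sign under any alternative run, and DESeq2 kept all calls among them.

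The level of promoters relative to other annotated regions (log2) ranged from -0.096 to 0.5 in osi_DTP with 1 library left out, from -0.12 to 0.69 in osi_DTP_AZD5153 and from -0.38 to 0.5 between the treated groups. It fell below 0 without osi_DTP replicate 2 in the first (-0.096), without osi_DTP_AZD5153 replicate 3 in the second (-0.12), and without that library (-0.38) or osi_DTP replicate 3 (-0.096) in the last. With 3 libraries per group and few reads in weak regions, a change that missed the threshold was not shown to be absent.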
